A study of Mus musculus with 10 samples.

Results

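De novo lipogenesis, the making of fatty acids from carbohydrate or acetate carbon, was examined in the livers of lung tumour-bearing mice through 10 genes: Slc25a1, Acly, Acss2, Acaca, Acacb, Fasn, Me1, Srebf1, Mlxipl and Pnpla3. They were chosen by name as the acetyl-CoA and fatty acid synthesis genes with their transcription factors and Pnpla3, and all 10 were found among the 43629 genes of the count table and among the 14143 genes with enough counts to test. The mice were KL mice, which carry floxed Lkb1 alleles (Lkb1 is the gene Stk11) together with a further Cre-activated allele on a background backcrossed to FVB. Male mice had received an intranasal adenovirus expressing Cre under the CMV promoter as adults, so the recombination was aimed at the lung and both groups carried the same alleles and the same virus. Livers of 5 mice without cachexia (NCACS, mice 11 to 15, labelled with weight losses of 3% to 14%) were compared with livers of 5 mice with the cancer anorexia-cachexia syndrome (CACS, mice 16 to 20, losses of 29% to 33%), the groups having been set by weight loss. No liver of a tumour-free mouse was analysed here, and each library came from 1 mouse.

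In the hepatocyte, citrate leaves the mitochondrion through the carrier encoded by Slc25a1 and is split into acetyl-CoA by Acly, while Acss2 makes acetyl-CoA from acetate. The acetyl-CoA carboxylases Acaca and Acacb turn acetyl-CoA into malonyl-CoA, and Fasn builds palmitate from it with NADPH, part of which comes from malic enzyme, Me1. Srebf1 encodes SREBP1, a transcription factor activated by insulin through processing of a membrane-bound precursor, and Mlxipl encodes ChREBP, a factor activated by glucose metabolites. Feeding raises and fasting lowers this programme in the liver, and Pnpla3, a lipid droplet protein, is among the genes it controls.

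Of the 10 genes, Acss2 alone passed the test across all genes, and it was lower in CACS livers, with 68.7 ± 17.7 CPM (normalised counts scaled to a common library size) against 177 ± 40.5 in NCACS livers (SD, n = 5 each). The other 9 did not pass: Slc25a1, Acly, Acacb and Me1 had lower means in CACS livers, and Fasn, Acaca, Srebf1, Mlxipl and Pnpla3 had CACS means of 0.906 to 1.16 times the NCACS means. The count of 1 in 10 stands beside a background of 3.8% of all 14143 genes called in either direction and 1.92% called lower (1.89% higher), by edgeR's quasi-likelihood test at a Benjamini-Hochberg adjusted p under 0.05. The median log2 fold change (CACS over NCACS) was -0.29 over the 10 genes and -0.01 over all genes tested. Without NCACS mouse 15 and CACS mouse 20, an alternative chosen after the data had been seen, the count was again 1 (Acss2) and the median over the 10 genes was -0.68. For most of the 10 genes these were the lowest NCACS and the highest CACS liver. Leaving them out therefore lowers most fold changes by construction, and that fit is not further support. Leaving out 1 liver moved that median between -0.17 (without CACS mouse 16) and -0.57 (without CACS mouse 20). In whole-liver RNA, fewer cells of a type and less RNA per cell cannot be told apart.

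Library depth was 31945328 to 38306888 counts in NCACS and 31459179 to 40746178 in CACS livers. Hepatocyte markers dominated every liver, with a summed level of 73100 to 119800 CPM in NCACS and 112900 to 137100 in CACS over 8 genes, of which Hnf4a alone passed the test and was higher in CACS (log2 fold change 0.50, edgeR adjusted p = 0.0435). The Hnf4a call held in only 1 of the 10 fits without 1 liver, that without mouse 18 (adjusted p up to 0.0974), and was lost with no filter on low counts (0.0763). The 6 adipocyte markers, which bear on these genes because fat cells make the same enzymes, summed to 0.224 to 7.09 CPM in NCACS and 1.599 to 8.35 in CACS. Plin1, Lep and Cidea were at 0 in some livers of that list, and none of its 3 tested genes passed by edgeR, DESeq2 or limma-voom (1 had an unadjusted edgeR p under 0.05, higher). The 6 Kupffer cell markers (117 to 201 CPM in NCACS and 78.2 to 156 in CACS) and the 5 tested leukocyte markers (9.94 to 29.0 and 6.37 to 14.04 CPM over the list) all had log2 fold changes below 0, and none passed by edgeR, with 3 and 5 at an unadjusted p under 0.05 and 2 and 3 called by DESeq2. Over all 14143 genes tested, 7161 had log2 fold changes below 0. Of all genes tested, 21.6% had an unadjusted edgeR p under 0.05 (10.3% lower in CACS), and DESeq2 called 9.8% (5.05% lower). The 6 endothelial markers (132.5 to 181 CPM in NCACS and 164 to 213 in CACS) and the 6 stellate cell markers (57.0 to 156 and 58.3 to 127) did not pass by edgeR, DESeq2 or limma-voom, with 0 and 2 at an unadjusted edgeR p under 0.05. The 6 lung epithelial markers summed to 2.02 to 6.89 CPM in NCACS and 2.76 to 9.62 in CACS, with Sftpc, Sftpb, Scgb1a1 and Nkx2-1 at 0 in some livers. Of its 4 tested genes Sftpa1, a surfactant protein, passed and was higher in CACS, at 3.42 ± 1.47 against 1.41 ± 0.106 CPM with no overlap (SD, n = 5 each; log2 fold change 1.27, edgeR adjusted p = 0.0323). That call was lost in 7 of the 10 fits without 1 liver, all but those without mouse 17, 18 or 19 (adjusted p up to 0.0681). The part of these cells in the results was not tested. Stk11, the floxed gene, was at 71.8 ± 3.73 CPM in NCACS and 70.0 ± 7.99 in CACS livers (SD, n = 5 each). NCACS mouse 15, with the largest weight loss of its group (14%), stood apart in clock genes. Its Dbp was at 1.27 CPM against 52.1 to 82.9 in the other 4 NCACS livers, and its Arntl at 33.8 CPM. That liver was also the lowest of its group for 8 of the 10 lipogenesis genes, all but Me1 and Pnpla3, and CACS mouse 20 was the highest of its group for 7. The part of the clock difference or of the weight loss in these values was not tested.

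The start regions are shown for 4 of the genes that are compared with each other below. Acss2 and Acly make the same product and differed in fold change, and Srebf1 and Fasn varied together from liver to liver. The part of the start regions in these results was not tested. Sequences are the RefSeq bases upstream of the start site on GRCm38.p6, 5′ to 3′ on the strand of the gene, without annotated exon bases. Capitals mark CCAAT on either strand, the box bound by NF-Y, and would also mark CACGTG, an E-box, or TCACNCCAC, a sterol regulatory element core, where these letters occurred.
Acss2 (chr2:155517793-155517947, plus strand): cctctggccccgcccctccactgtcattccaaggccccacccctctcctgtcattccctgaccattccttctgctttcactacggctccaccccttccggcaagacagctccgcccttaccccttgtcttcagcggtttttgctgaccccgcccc
Acly (chr11:100528001-100528250, minus strand): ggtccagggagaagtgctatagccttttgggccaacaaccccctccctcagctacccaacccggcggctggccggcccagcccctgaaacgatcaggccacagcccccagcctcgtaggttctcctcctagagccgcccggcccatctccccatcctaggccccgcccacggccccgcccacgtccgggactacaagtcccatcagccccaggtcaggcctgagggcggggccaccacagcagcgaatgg
Fasn (chr11:120824548-120824797, minus strand): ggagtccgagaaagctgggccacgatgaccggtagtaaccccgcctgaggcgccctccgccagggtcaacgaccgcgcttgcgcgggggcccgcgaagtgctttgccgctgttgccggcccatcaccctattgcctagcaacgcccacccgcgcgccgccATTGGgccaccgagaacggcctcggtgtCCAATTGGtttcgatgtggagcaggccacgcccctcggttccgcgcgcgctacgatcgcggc
Srebf1, the most downstream of its 3 RefSeq starts (chr11:60210472-60210721, minus strand): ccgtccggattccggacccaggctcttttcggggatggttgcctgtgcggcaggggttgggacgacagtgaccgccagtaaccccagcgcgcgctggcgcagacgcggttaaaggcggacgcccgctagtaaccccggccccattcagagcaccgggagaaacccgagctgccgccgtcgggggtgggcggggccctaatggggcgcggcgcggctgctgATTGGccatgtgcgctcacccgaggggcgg

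The Fasn stretch holds CCAAT 3 times, at -90, -62 and -59 from the start site, and the Srebf1 stretch holds it once, at -30. The Acss2 and Acly stretches hold none of the 3 motifs, although the full 300-base windows, 250 bases before to 50 after the start, have CCAAT at -73 in Acss2 and at 37 in Acly. All 10 genes matched a RefSeq window, 14 windows in all, and CCAAT occurred in 10 of them, which belong to 9 genes (all but Acaca). The same letters occurred in 37.4% of 32851 windows of that length in the genome. CACGTG was found in 2 windows, at -239 in Slc25a1 and -98 in Mlxipl, against 7.15% of all windows. TCACNCCAC was found in 1, at -136 from the downstream start of Mlxipl, against 1.24% of all windows. A match is a string of letters and not a measured binding site.

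**Figure D1:**
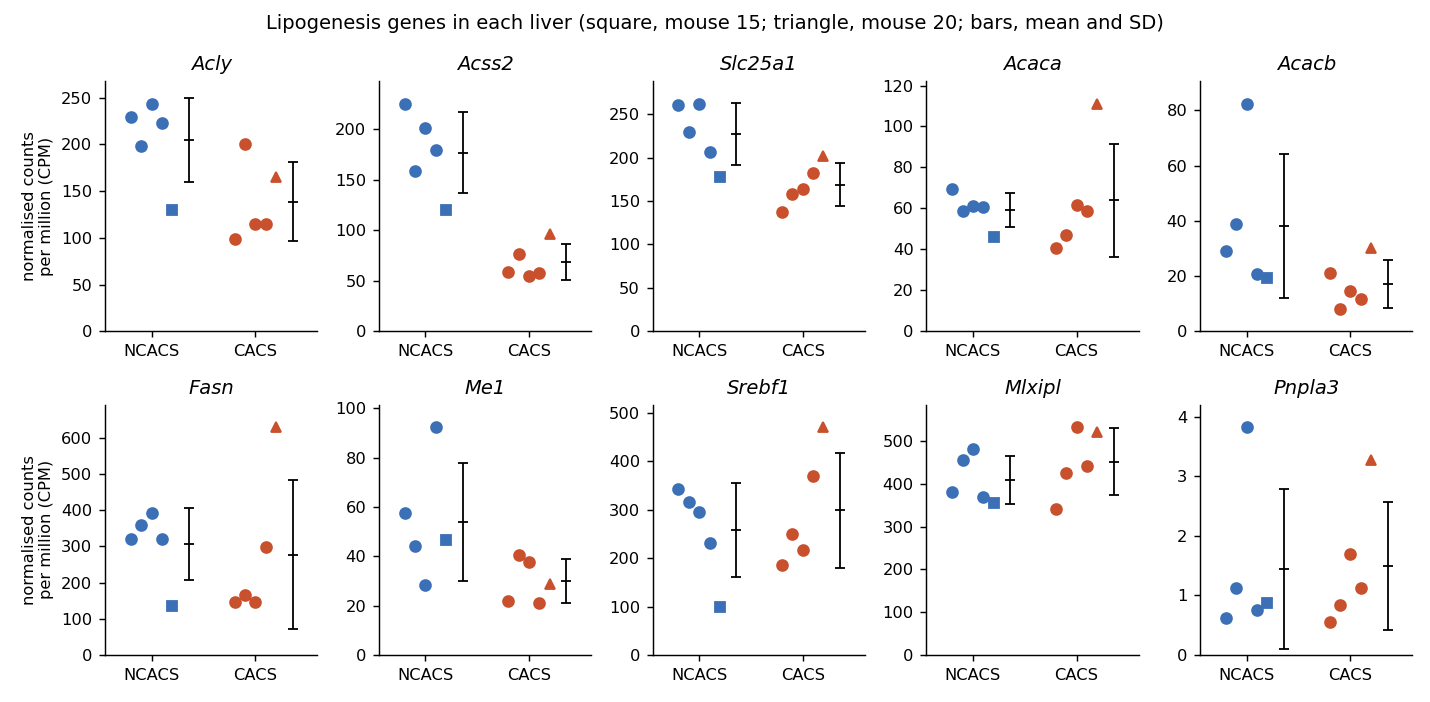
Level of each of the 10 genes in every liver, in CPM on linear axes that start at 0, with NCACS and CACS livers side by side, 1 point a liver (square, mouse 15; triangle, mouse 20), and the mean and SD beside the points. Acss2 is the gene whose groups do not overlap, and mouse 15 (NCACS) and mouse 20 (CACS) lie at the edges for Fasn and Srebf1.

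The first question was whether the genes that supply cytosolic acetyl-CoA differed between CACS and NCACS livers. Acss2, acetyl-CoA synthetase 2 (GRCm38, chromosome 2, 155517948 to 155585724, plus strand), was at 225, 158, 202, 179 and 119.8 CPM in NCACS mice 11 to 15. It was at 58.4, 76.4, 54.6, 57.4 and 96.4 CPM in CACS mice 16 to 20. Every CACS liver was below every NCACS liver, and the nearest pair was CACS mouse 20 and NCACS mouse 15. The CACS mean was 0.388 times the NCACS mean, a log2 fold change of -1.36 (SE 0.198, 95% interval -1.80 to -0.93) with an edgeR adjusted p of 0.00833. The exact two-sided permutation test of the 252 assignments gave p = 0.00794, the smallest it can give with 5 against 5. Groups that did not overlap were seen in 7.07% of all genes tested, and in 3.13% with CACS lower. Acss2 passed in all 10 fits that left out 1 liver, with log2 fold changes of -1.52 to -1.26. Its exons share bases with 3 genes on the opposite strand, Ggt7, Acss2os and Gss, and the strand setting of the counting was not given in the sources used here. Gss, the most abundant neighbour, differed by 0.04 on the log2 scale (edgeR adjusted p = 0.864). Values of Ggt7 and Acss2os are not given here, and the part of shared reads in the Acss2 counts was not tested.

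Acly, ATP citrate lyase (chromosome 11, 100476353 to 100528000, minus strand), was at 229.5, 198, 244, 223 and 129.6 CPM in NCACS mice 11 to 15 and at 98.4, 200, 115, 115 and 165 CPM in CACS mice 16 to 20. The groups overlapped: CACS mice 17 and 20 lay above NCACS mouse 15, and mouse 17 also above mouse 12. The log2 fold change was -0.56 (SE 0.217, 95% interval -1.04 to -0.087) and did not pass (edgeR adjusted p = 0.160). Slc25a1, the citrate carrier (chromosome 16, 17925223 to 17928219, minus strand), was at 261, 230.1, 262, 207 and 178 CPM in NCACS and at 137, 158, 164, 182 and 202 CPM in CACS livers. Again CACS mice 19 and 20 exceeded NCACS mouse 15, while the other 3 CACS livers lay below all NCACS livers. Its log2 fold change of -0.43 (SE 0.138) did not pass by edgeR (adjusted p = 0.100) and did by DESeq2 (adjusted p = 0.0366).

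Acss2 and Acly were then set against each other within each liver, which removes the library scaling. The log2 level of Acss2 minus that of Acly was -0.21 ± 0.133 in NCACS and -0.998 ± 0.259 in CACS livers (SD, n = 5 each), with no overlap. The difference of -0.79 had an exact permutation p of 0.00794, and 0.0159 after adjustment over the 4 gene pairs compared in this way. Acss2 was therefore lower relative to Acly in CACS livers, beyond the spread between livers, although Acly itself did not pass the test. Its mitochondrial relative Acss1 was at 0.571 ± 0.180 CPM in NCACS and 0.365 ± 0.201 in CACS (log2 fold change -0.62, edgeR adjusted p = 0.372). Acss3, a mitochondrial short-chain acyl-CoA synthetase, was at 18.7 ± 8.14 and 10.1 ± 3.67 CPM (log2 fold change -0.88, adjusted p = 0.163; SD, n = 5 each).

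**Figure D2:**
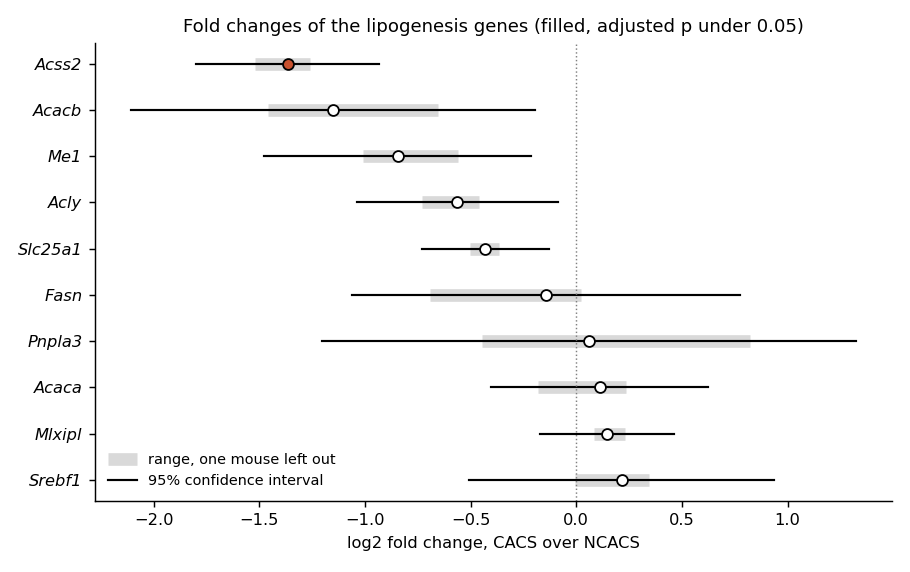
Log2 fold change (CACS over NCACS) of each of the 10 genes with its 95% interval from the edgeR fit of 10 livers, the dotted line marking no difference, the grey band the range over fits without 1 mouse, and the filled point the gene past the threshold. The interval of Acss2, -1.80 to -0.93, is the farthest from 0, and those of Acaca, Fasn, Srebf1, Mlxipl and Pnpla3 include 0.

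The enzymes that build the chain came next. Fasn, fatty acid synthase (chromosome 11, 120805846 to 120824547, minus strand), was at 320.5, 358, 394, 322 and 137 CPM in NCACS mice 11 to 15. In CACS mice 16 to 20 it was at 147, 166, 146, 298 and 629 CPM. NCACS mouse 15 was the lowest of all 10 livers and CACS mouse 20 the highest, so the range of one group covered most of that of the other. The log2 fold change was -0.14 (SE 0.420, 95% interval -1.06 to 0.78; edgeR adjusted p = 0.884). Without CACS mouse 20 the value was -0.69, and without CACS mouse 16 or 18 it was 0.02; without both NCACS mouse 15 and CACS mouse 20 it was -0.88 (edgeR adjusted p = 0.101). None of these passed.

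Acaca, acetyl-CoA carboxylase 1, which makes the malonyl-CoA used for synthesis (chromosome 11, 84129672 to 84401651, plus strand), was at 69.3, 58.8, 61.0, 60.8 and 45.9 CPM in NCACS and 40.7, 47.1, 61.8, 58.6 and 111 CPM in CACS livers. CACS mouse 20 was the highest of all and CACS mouse 16 the lowest. The log2 fold change of 0.11 (SE 0.236, 95% interval -0.41 to 0.63; edgeR adjusted p = 0.831) became -0.18 without mouse 20. Acacb, acetyl-CoA carboxylase 2, whose malonyl-CoA restrains fatty acid entry into mitochondria (chromosome 5, 114146535 to 114250761, plus strand), was at 29.2, 38.7, 82.4, 20.7 and 19.1 CPM in NCACS livers. It was at 21.01, 8.16, 14.5, 11.7 and 30.3 CPM in CACS livers, so CACS mice 17, 18 and 19 lay below all NCACS livers and mice 16 and 20 among them. The log2 fold change was -1.15 (SE 0.437, edgeR adjusted p = 0.153), and -0.66 without NCACS mouse 13, the highest liver.

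Set against each other within a liver, the log2 level of Acacb minus Acaca was -0.84 ± 0.794 in NCACS and -1.95 ± 0.608 in CACS livers (SD, n = 5 each). The difference of -1.11 had an exact permutation p of 0.0317 and 0.0423 after adjustment over the 4 pairs, with overlapping groups. This call was lost in 5 of the 10 repeats that left out 1 liver (NCACS mouse 13 or CACS mouse 17, 18, 19 or 20), with exact permutation p of 0.0635 to 0.0714. The repeats were judged by the exact permutation p without adjustment over the 4 pairs, a milder rule than that of the call.

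Me1, the cytosolic malic enzyme that yields NADPH (chromosome 9, 86581371 to 86695953, minus strand), was at 57.6, 44.3, 28.5, 92.3 and 46.8 CPM in NCACS livers. In CACS livers it was at 22.0, 40.6, 37.8, 20.96 and 28.7 CPM. NCACS mouse 13 lay among the CACS livers and the other 4 NCACS livers above all of them. The log2 fold change of -0.85 (SE 0.289, 95% interval -1.48 to -0.21) did not pass by edgeR (adjusted p = 0.121) and did by DESeq2 (adjusted p = 0.0373). In all, 5 of the 10 genes had an unadjusted edgeR p under 0.05, all lower in CACS, where 21.6% of all genes tested had one and 10.3% did with CACS lower. DESeq2 called 3 of the 10, all lower (Acss2, Slc25a1 and Me1), where it called 9.8% of all genes and 5.05% lower. limma-voom called 1, Acss2, where it called 3.6% of all genes and 1.92% lower.

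The regulators were examined to see whether their own transcripts moved with the enzymes. Srebf1 (chromosome 11, 60199089 to 60222581, minus strand) was at 343, 316, 295, 232 and 99.7 CPM in NCACS mice 11 to 15 and at 186, 249, 217, 370.3 and 470.0 CPM in CACS mice 16 to 20. NCACS mouse 15 was the lowest of all 10 livers and CACS mouse 20 the highest. The log2 fold change of 0.21 (SE 0.330, 95% interval -0.51 to 0.94; edgeR adjusted p = 0.757) became -0.01 without mouse 20 and -0.22 without mice 15 and 20. Gene counts do not separate the 1a and 1c transcripts of Srebf1.

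Mlxipl (chromosome 5, 135089890 to 135138382, plus strand) was among the steadiest of the 10, at 382, 457, 481, 371 and 355 CPM in NCACS and 341, 427, 532, 442 and 521 CPM in CACS livers. The groups overlapped, and the log2 fold change was 0.15 (SE 0.145, 95% interval -0.17 to 0.46; edgeR adjusted p = 0.599). Pnpla3 (chromosome 15, 84167837 to 84187236, plus strand) was barely detected, at 0.623 to 3.82 CPM in NCACS and 0.550 to 3.26 in CACS livers, which is 21 to 118 counts. Its log2 fold change was 0.06 (SE 0.579) with a 95% interval of -1.21 to 1.33, the widest of the 10.

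Each regulator was compared with its relative. Mlxip, which encodes the ChREBP relative MondoA, was higher in CACS livers, at 16.01 ± 1.65 CPM against 10.2 ± 2.07 (SD, n = 5 each; log2 fold change 0.64, edgeR adjusted p = 0.0359). This call held in the fits without mouse 12, 15 or 17 and was lost in the other 7, with adjusted p up to 0.0775. The log2 level of Mlxipl minus Mlxip was 5.33 ± 0.242 in NCACS and 4.804 ± 0.347 in CACS livers, a difference of -0.52 with an exact permutation p of 0.00794 and 0.0159 over the 4 pairs (SD, n = 5 each). The groups did not overlap, but the nearest livers were only 5.069 and 5.067. Srebf2, the regulator of cholesterol synthesis, had a log2 fold change of -0.45 (edgeR adjusted p = 0.197), and Srebf1 minus Srebf2 differed by 0.69 between the groups with an exact permutation p of 0.103.

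**Figure D3:**
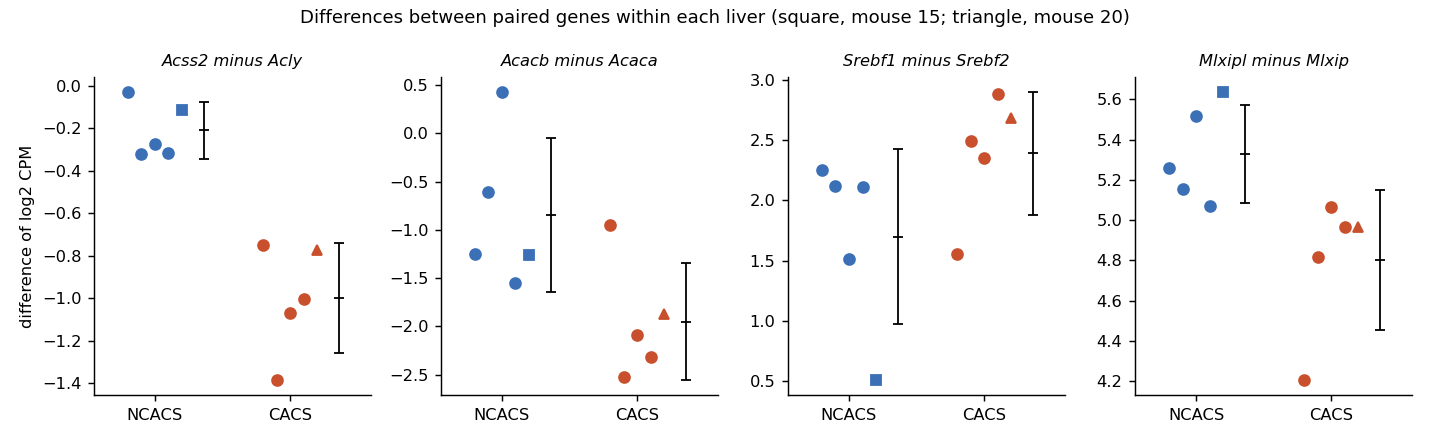
Difference of log2 CPM between 2 genes in the same liver for the 4 gene pairs, 1 point a liver, with the mean and SD of each group. NCACS and CACS livers do not overlap for Acss2 minus Acly and for Mlxipl minus Mlxip, and they overlap for the other 2 pairs.

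Levels were compared between genes per kilobase of union exon length. In NCACS livers the order from high to low was Slc25a1 (105 ± 16.6 CPM per kb), Mlxipl (73.9 ± 10.1), Srebf1 (45.7 ± 17.2), Acly (38.8 ± 8.55), Fasn (28.0 ± 9.08), Acss2 (17.4 ± 3.98), Me1 (14.01 ± 6.20), Acacb (3.95 ± 2.70), Acaca (3.46 ± 0.494) and Pnpla3 (0.927 ± 0.868; SD, n = 5). The ranges of neighbours overlapped except between Mlxipl and Srebf1 and between Acaca and Pnpla3. In CACS livers Slc25a1 lay above Mlxipl in only 2 of 5 livers, against 5 of 5 NCACS livers, and Acacb lay below Acaca in all 5, against 3 of 5 in NCACS. Union length counts the exons of every annotated isoform, and isoform use was not measured. Acaca has the longest union length, 17074 bases against 9632 for Acacb, and in CPM Acaca had the higher NCACS mean (59.1 against 38.0), so the order of these neighbours rests on the length used.

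The rest of the pathway was described by 6 lists of related genes, 61 genes tested in all. Of these, 1 passed with a higher level in CACS (Mlxip) and 5 with a lower level, with a median log2 fold change of -0.04 against -0.01 over all genes. The 5 were Insig1, Scap, Scd1, Elovl5 and Acsl5, and 3.8% of all genes passed.

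In the list of SREBP processing, all 7 genes had log2 fold changes below 0, from -1.08 to -0.02, and 2 passed. Of all 14143 genes tested, 7161 had log2 fold changes below 0, and 1.92% were called lower. Insig1, which retains the SREBP precursor in the endoplasmic reticulum and is itself an SREBP target, was at 206 ± 68.8 CPM in NCACS and 97.8 ± 28.2 in CACS livers (log2 fold change -1.08, edgeR adjusted p = 0.0372). Scap, the escort that carries the precursor to the Golgi, was at 106 ± 14.4 and 73.0 ± 9.75 CPM (log2 fold change -0.54, adjusted p = 0.0341; SD, n = 5 each). Insig2 stood at a log2 fold change of -0.34 (adjusted p = 0.575). Each of these calls was lost in 8 of the 10 fits that left out 1 liver (adjusted p up to 0.0746 for Insig1 and 0.077 for Scap): Insig1 passed only without mouse 12 or 17, and Scap only without mouse 15 or 17.

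In the list of fatty acid use, 3 of 13 passed, all lower, where 1.92% of all genes tested were called lower. Scd1, the stearoyl-CoA desaturase that turns new saturated fatty acids into monounsaturated ones, was at 2422 ± 1191 CPM in NCACS and 690.0 ± 365 in CACS livers (log2 fold change -1.81, edgeR adjusted p = 0.0388). Elovl5, an elongase of polyunsaturated fatty acids, was at 367 ± 99.1 and 156 ± 51.7 CPM (log2 fold change -1.23, adjusted p = 0.0243). Acsl5, which activates long-chain fatty acids, was at 466 ± 64.3 and 264 ± 39.1 CPM (log2 fold change -0.82, adjusted p = 0.0137; SD, n = 5 each), and it passed in all 10 fits that left out 1 liver. Elovl6, the elongase of palmitate, stood at -0.17 on the same scale (adjusted p = 0.811). The Scd1 call was lost in 7 of those 10 fits, all but those without mouse 12, 15 or 20 (adjusted p up to 0.0817), and that of Elovl5 in 4, those without mouse 11, 14, 16 or 19 (up to 0.0583).

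The remaining lists held few calls. None of the 13 genes of glycolytic and mitochondrial carbon supply passed by edgeR or limma-voom, and their median log2 fold change was 0.16; 5 had an unadjusted edgeR p under 0.05 (2 lower), and DESeq2 called 2, of which 1 was lower (Cs, citrate synthase). Liver pyruvate kinase, Pklr, a ChREBP target, was at 0.61 (edgeR adjusted p = 0.325). None of the 6 NADPH-supply genes passed by edgeR or limma-voom, with a median of -0.27, while 3 had an unadjusted edgeR p under 0.05 and the same 3 were called lower by DESeq2. These were Pgd, of the pentose phosphate pathway (log2 fold change -0.61, edgeR adjusted p = 0.0504), Idh1, cytosolic isocitrate dehydrogenase (-0.38, 0.0577), and Taldo1, transaldolase (-0.35, 0.065). None of the 9 genes that act on acetyl-CoA carboxylase passed by edgeR or limma-voom, with a median of 0.17, 1 unadjusted edgeR p under 0.05 and 1 gene, Prkag1, called higher by DESeq2. Thrsp, a lipogenic target gene of that list, was at 0.32 (adjusted p = 0.790). Among 13 partners of the lipogenic transcription factors Mlxip alone passed. Nr1h3, the oxysterol receptor LXRα that induces Srebf1, was at -0.10 (adjusted p = 0.663). Of the 6 tested relatives of the 10 genes, Mlxip passed and so did Me2, the mitochondrial malic enzyme, at 2.45 ± 0.543 CPM in NCACS and 1.34 ± 0.285 in CACS livers (SD, n = 5 each; log2 fold change -0.87, adjusted p = 0.0487), a call lost in 8 of the 10 fits without 1 liver, all but those without mouse 15 or 17. The Me2 call was also lost by limma-voom (adjusted p = 0.0526). By edgeR it was lost with upper-quartile scaling (adjusted p = 0.0512), raw library totals (0.0658) and no filter on low counts (0.0762). None of 10 fasting and insulin response genes passed by edgeR, DESeq2 or limma-voom. Of these, 5 had log2 fold changes above 0 and 5 below. An unadjusted edgeR p under 0.05 was found for 2, both higher in CACS. They were Angptl4 (log2 fold change 0.52, edgeR adjusted p = 0.177) and Fgf21 (2.09, 0.202), the latter at 0.453 to 1.34 CPM in NCACS and 0.115 to 12.4 in CACS livers. None of 17 clock genes passed by edgeR or limma-voom, and 6 had an unadjusted edgeR p under 0.05. DESeq2 called 3 of them between the groups, which overlapped for each. Nr1d1 was lower in CACS, at 41.1 against 129 CPM (DESeq2 adjusted p = 0.0434). Cry1 (13.4 against 6.65 CPM, 0.0395) and Bhlhe40 (205 against 107 CPM, 0.0191) were higher in CACS. Mouse 15, which differed in the clock genes as given above, was the lowest NCACS liver for Nr1d1 and Bhlhe40 and the highest for Cry1.

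**Figure D4:**
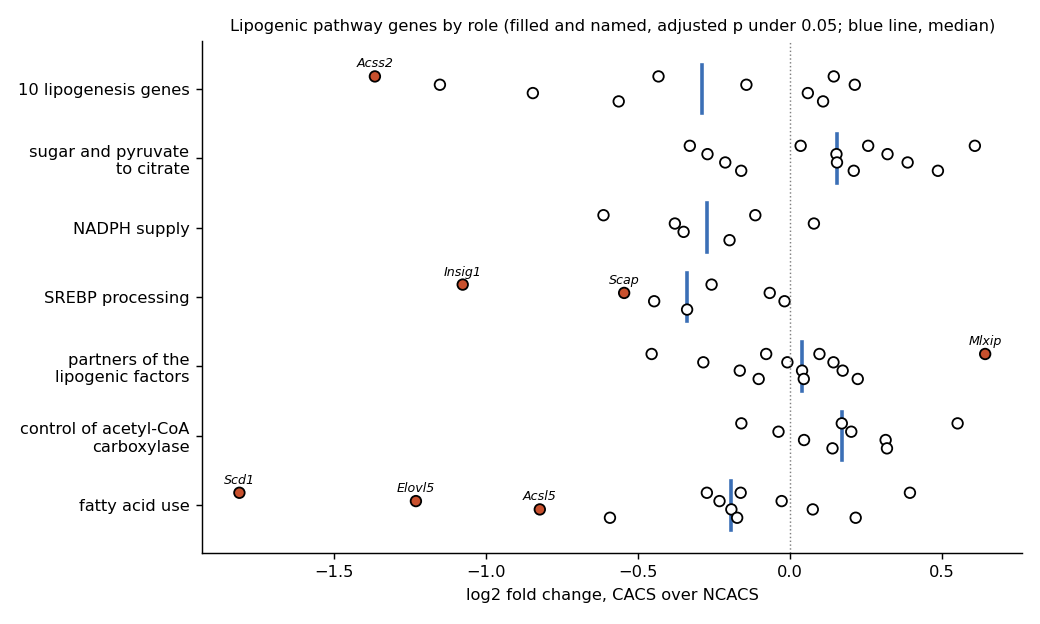
Log2 fold change (CACS over NCACS) of each tested gene in the 10 lipogenesis genes and the 6 related lists, 1 point a gene, filled and named where past the edgeR threshold, with the median of each list as a blue line. The 7 genes of SREBP processing lie below 0, from -1.08 to -0.02, as do 7161 of all 14143 genes tested. Of the 61 genes of the related lists 6 passed, where 3.8% of all genes did.

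The livers also differed within their groups, in a way the comparison of the groups did not use. After each group mean was subtracted, Srebf1 and Fasn varied together across the 10 livers (Pearson r = 0.903, Spearman rho = 0.818). Without NCACS mouse 15 and CACS mouse 20, the 2 livers farthest from the median for Fasn, r was 0.899. The group means subtracted were still those of all 10 livers, so that value also holds a shift between the groups. It therefore does not measure variation within the groups alone. Acss2 and Fasn had r = 0.740, and 0.346 without the same 2 livers, a value with the same limit. Me1 did not follow the others: its r with the mean of the 10 genes was -0.023, where the other 9 had 0.582 to 0.915, each gene being part of that mean. The lowest mean over the 10 genes, in standard deviations from the group mean, was -1.18 in NCACS mouse 15, and the highest was 1.29 in CACS mouse 20. The values of a liver share its library, so these correlations are descriptions without a test.

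Outside the 10 genes, those most like their within-group mean, at a level of at least 5 CPM, were Kpna2 (r = 0.950), Mapk8ip3 (0.943), Slc25a44 (0.940), Mief2 (0.937), Rab3a (0.936), Fbl (0.921), Kmt5a (0.920), Prpf40b (0.916), Phf1 (0.915) and Atp5g1 (0.909), each over 10 livers. Leaving out 1 liver at a time gave r between 0.856 and 0.978, and Spearman rho over 10 livers was 0.721 to 0.964. The 10 were picked for the highest r among all tested genes at that level in the same livers. High values therefore follow in part from the choice, and leaving out 1 liver does not test them. The known lipogenic companions Thrsp and Mid1ip1 had r of 0.923 and 0.859 with Srebf1, and of 0.778 and 0.915 with Fasn. Other genes named above followed Srebf1 less or not at all. Its r was 0.563 with Elovl6, 0.544 with Scd1, 0.07 with Insig1 and -0.658 with Elovl5.

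**Figure D5:**
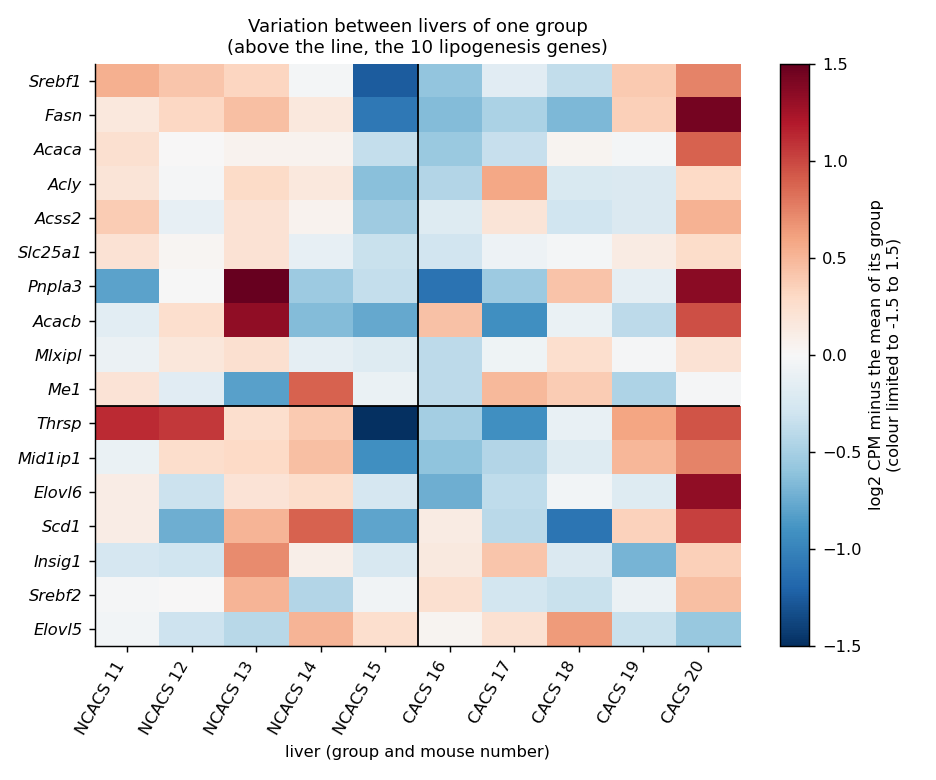
Heat map of the level of the 10 lipogenesis genes and 7 related genes (rows) in each of the 10 livers (columns) after subtraction of the group mean, in log2 CPM, red above and blue below that mean. NCACS mouse 15 lies low and CACS mouse 20 high for most of the genes, and Srebf1 and Fasn follow each other (r = 0.903 over 10 livers).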

How the data were processed

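RNA was measured in 10 whole livers, 5 NCACS and 5 CACS, each from a separate mouse, by stranded poly(A) single-end sequencing. The deposited values are raw counts of reads per gene that the authors made with STAR 2.4.1d against GRCm38 and HTSeq 0.6.1, per the labels; the annotation release and the strand setting of the counting were not given in the sources used here, and the authors' own further normalisation was not repeated. Gene identifiers were named with GENCODE M21, and 1081 of 43629 had no match. Groups were taken from the sample titles.

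Genes with too few counts were removed by edgeR's default filter (14143 left, all 10 lipogenesis genes among them), libraries were scaled by TMM, and CACS was tested against NCACS with edgeR 4.0.16 (quasi-likelihood test in R 4.3.3, Benjamini-Hochberg adjustment over all genes tested, threshold 0.05). Log2 levels used a prior count of 2. DESeq2 1.42.0, limma-voom (limma 3.58.1), other scalings, other filters and the omission of each liver in turn were the alternatives, and the script was tested on simulated data. Single values were tested by two-sided exact permutation over the 252 assignments of livers to groups. No batch is named in the labels. No 2 livers of a group agreed within sampling noise. Depth of 31459179 to 40746178 counts per liver gave the lipogenesis genes 21 to 21974 counts each. Named were the 10 genes, their paired relatives, every gene of the related lists past the threshold, Pklr, Insig1, Insig2, Srebf2, Mlxip, Nr1h3, Thrsp, Elovl6 and Scd1, and the 10 genes with a mean of at least 5 CPM that co-varied most. Cs, Pgd, Idh1, Taldo1, Prkag1, Acss1, Acss3, Mid1ip1, Gss, Stk11, Angptl4, Fgf21, Dbp, Arntl, Nr1d1, Cry1 and Bhlhe40 were named after their values had been seen. Some items are not reported here. The members and lists were chosen with earlier results of these data known. Start-region sequences are from RefSeq, GRCm38.p6.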

Additional observations from a re-analysis of the deposited data

Results flagged for a closer look

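In 80 combinations of a gene or gene pair and a group of 5 livers, 5 had 1 liver far from the others by Dixon's test, where the gap to the nearest liver as a share of the group's range exceeded 0.71; chance gives about 1 in 20. Fasn in NCACS mouse 15 was at 137 CPM with the next liver at 320.5 (gap share 0.806). Thrsp in the same mouse was at 31.8 CPM with the next at 267 (0.779). Rab3a in that mouse was at 3.77 CPM with the next at 5.35 (0.733). Mapk8ip3 in CACS mouse 20 was at 71.4 CPM with the next at 52.4 (0.807). The log2 level of Mlxipl minus Mlxip in CACS mouse 16 was 4.20 with the next at 4.82 (0.711). No explanation for these was tested.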

How the results depend on the processing

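Acss2 passed under every scaling, filter and tool tried and in all 10 fits without 1 liver (log2 fold change -1.52 to -1.26). Without NCACS mouse 15 and CACS mouse 20, the one alternative chosen after the data had been seen, it was at -1.63. These were its lowest NCACS and highest CACS liver, so that fit could only widen the difference and is not further support. DESeq2 called 1386 genes (672 higher, 714 lower), 3 of the 10 lipogenesis genes (3 lower, with Slc25a1 at -0.44 and Me1 at -0.85 passing) and 14 of the related lists (4 higher, 10 lower). With no filter on low counts, 173 genes were higher. Without mice 15 and 20, 147 genes were called (51 higher, 96 lower) and 3 of the related lists (0 higher, 3 lower); Acaca was at -0.27, Srebf1 at -0.22, Pnpla3 at -0.59, Insig2 at 0.18 and Thrsp at -0.27, all of opposite sign to the full set, and Acacb minus Acaca was -1.23 (exact permutation p = 0.0857). The causes were not tested.

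Leaving out 1 liver gave 178 to 519 genes changed (79 to 246 higher, 96 to 273 lower), 1 of the 10 lipogenesis genes each time (0 higher, 1 lower), and 1 to 6 genes of the related lists (0 to 1 higher, 1 to 5 lower). The log2 fold changes ran from -0.73 to -0.46 for Acly, -0.50 to -0.36 for Slc25a1, -0.18 to 0.24 for Acaca, -1.46 to -0.66 for Acacb, -0.69 to 0.02 for Fasn, -1.01 to -0.56 for Me1, -0.0079 to 0.35 for Srebf1, 0.08 to 0.23 for Mlxipl and -0.45 to 0.82 for Pnpla3. The paired differences ran from -0.85 to -0.69 for Acss2 minus Acly, -1.36 to -0.79 for Acacb minus Acaca, 0.40 to 0.90 for Srebf1 minus Srebf2 and -0.59 to -0.37 for Mlxipl minus Mlxip. Fasn was at 0.019 without CACS mouse 16 and 0.021 without CACS mouse 18. Pnpla3 was at -0.13, -0.018, -0.10 and -0.073 without NCACS mouse 11, 12, 14 or 15, and Insig2 at 0.087 without mouse 15. No paired analysis was possible because mice 11 to 15 and mice 16 to 20 have no number in common. Pnpla3, at 21 to 118 counts a liver, rested on the lowest depth.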
